A study of Mus musculus with 4 samples.

Results

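FGF and other growth factors signal through the kinase ERK, and ERK signalling switches on its own inhibitors. Transcripts of 9 genes induced by ERK signalling, here called feedback genes, were examined. The inhibitors among them were the Sprouty genes Spry1, Spry2 and Spry4, the SPRED genes Spred1 and Spred2, and the ERK phosphatase genes Dusp4, Dusp5 and Dusp6. The remaining gene, Etv4, encodes an ETS transcription factor and not an inhibitor. The genes were taken by name from the gene count table, in which all 9 were found among 78275 genes. The RNA came from testis cells enriched for spermatogonia, taken from male 129S1/Sv mice of Pnd 5 (5 days after birth). Of the 4 libraries, 2 were wild-type (WT) and 2 came from mice with both copies of the gene for the deacetylase SIRT7 deleted (Sirt7-/-). The cells were enriched by differential plating rather than sorted, so that somatic cells remained, and the labels do not say how many animals went into a pellet of 200000 cells.

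In this pathway a ligand binds a receptor tyrosine kinase, which activates RAS, RAF, MEK and ERK in turn. Active ERK then raises the transcription of Sprouty, SPRED, DUSP and ETV genes, so that their transcripts are widely read as a gauge of recent ERK activity. In the neonatal testis, FGF2 and the related signal from GDNF through RET support the self-renewal of spermatogonial stem cells. Somatic cells use the pathway too, and their transcripts enter a bulk library alongside those of the germ cells. The cells were digested with collagenase and trypsin and then plated before RNA was taken. Whether this handling changed transcripts of the pathway was not tested.

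Total counts ran from 22007504 to 22181066, and no library stood apart in depth. The Sirt7-/- replicates differed from each other, by a chi-square of 7.59 per gene, about as much as libraries of different genotype did (7.19 to 7.95), whereas the WT replicates were closer (3.48). Sirt7 was at 704 and 692 counts in WT and at 129 and 122 in Sirt7-/-, as the labels give it. Sirt7 fell by 2.47 ± 0.11 (SE) on the log2 scale (adjusted p of 3.63e-06 with edgeR's quasi-likelihood test and Benjamini-Hochberg adjustment). Zbtb16, which encodes the spermatogonial marker PLZF, was at 279 and 266 CPM in WT and at 283 and 251 CPM in Sirt7-/-. Among markers of spermatogonia and other germ cells, 12 of 12 were measured, and their summed level was 2364 and 2439 CPM (counts per 1000000 counts of the library, scaled by TMM) in WT and 2590 and 2319 CPM in Sirt7-/-. The 10 Sertoli cell markers, all measured, summed to 2437 and 2364 CPM in WT and to 2150 and 2687 CPM in Sirt7-/-, replicate 1 first. The 6 peritubular myoid markers summed to 472 and 545 CPM in WT and to 496 and 682 CPM in Sirt7-/-. Fibroblast markers (8 measured) summed to 787 and 863 CPM in WT against 645 and 741 CPM, and erythroid markers (5 measured) to 1017 and 924 CPM against 1536 and 1152 CPM. Of the 8 fibroblast markers, 5 were lower with an adjusted p under 0.1 in edgeR (Col3a1, Dpt, Postn, Mfap5 and Dcn). Over all genes tested, 0.0861% passed this threshold in either direction. The 3 other fibroblast markers did not pass, and 1 of the 8 had a positive fold change. Of the erythroid markers 0 passed, and all 5 had a positive fold change with an unadjusted p under 0.05 in edgeR, beside 8.62% of all genes in either direction. Leydig cell (6), endothelial (6) and leukocyte (4 of 6) markers summed to at most 143 CPM in any library. Of the macrophage and leukocyte markers, Cd68 was at 148 to 167 counts per library and Laptm5 at 80 to 161. Csf1r and Ptprc were at 7 to 21 counts, and Adgre1 and C1qa at 1 to 3.

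The comparison of the genotypes asks which transcripts differ in cells without SIRT7, and none of the 9 feedback genes was called. All 9 passed the filter on low counts, and 0 had an adjusted p under 0.1 (edgeR's quasi-likelihood test, Benjamini-Hochberg over 19736 genes), against 0.0861% of all genes tested. DESeq2 and limma-voom also called 0. At an unadjusted p under 0.05 there were 2 with edgeR (Spred2 and Dusp5), 1 with DESeq2 and 2 with limma-voom, and with edgeR 8.62% of all genes were under that value. The fold changes, Sirt7-/- over WT, were small and of both signs, with 6 positive and 3 negative values from -0.15 to 0.24 on the log2 scale. Their median was 0.09, beside 0.00 over all genes tested. In 6 of the 9 genes both Sirt7-/- libraries lay outside both WT libraries, 4 above and 2 below, and 39.7% of all genes tested were separated in this way.

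**Figure D1:**
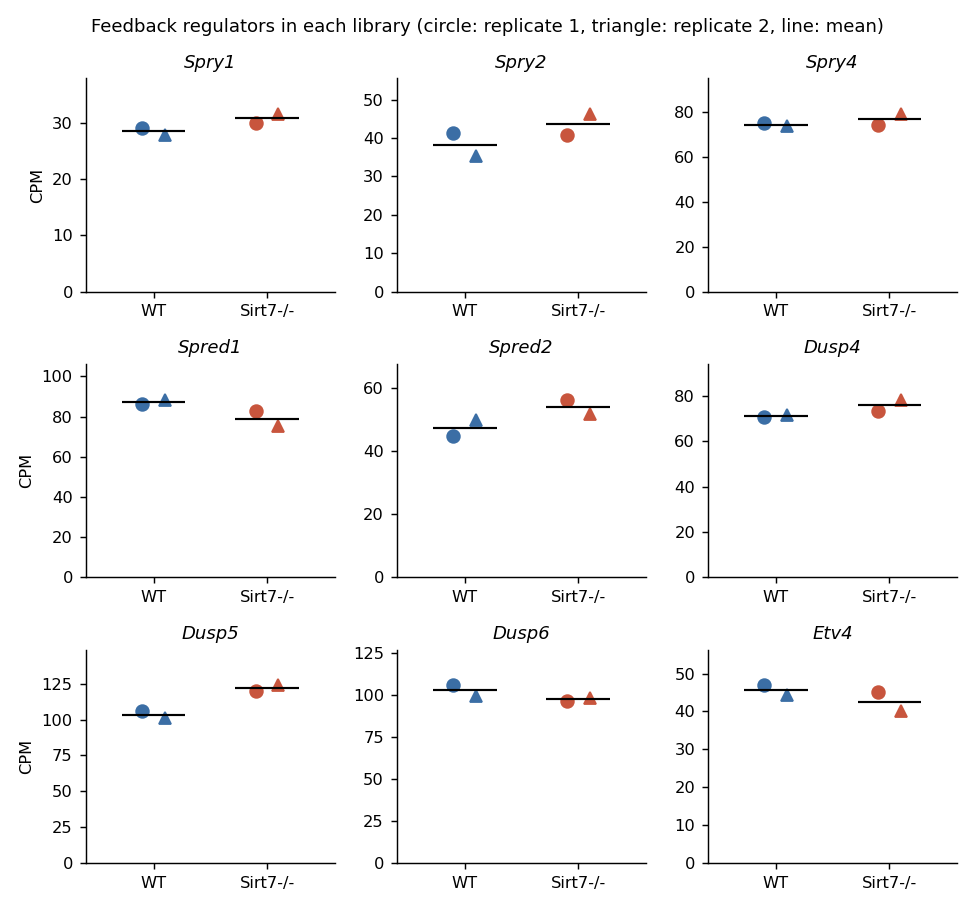
Expression of the 9 feedback genes in CPM (vertical axes, each from 0) in the WT (blue) and Sirt7-/- (red) libraries, with the mean of each group as a line. The groups lie close together in every panel, and in Dusp5 the Sirt7-/- libraries, at 120.0 and 124 CPM, sit above the WT libraries at 106 and 101 CPM.

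The Sprouty proteins block the step from receptor to RAS and RAF, and their genes are early targets of FGF signalling. Spry1 lies on chromosome 3 from 37693897 to 37698755 in GRCm39, the build of all coordinates here. Its level was 29.1 and 27.9 CPM in WT and 29.96 and 31.5 CPM in Sirt7-/-. Both Sirt7-/- libraries were above both WT libraries, by a log2 fold change of 0.11 ± 0.09 (SE; n = 2 per group; 95% interval -0.08 to 0.30), which did not pass. Spry2, on chromosome 14 from 106128766 to 106136446, was at 41.3 and 35.3 CPM in WT and at 40.9 and 46.2 CPM in Sirt7-/-. Its groups overlapped, and the highest library was 1.31 times the lowest, the widest range of the 9 genes. The log2 fold change of Spry2 was 0.19 ± 0.10 (-0.03 to 0.41). With WT replicate 2 left out the estimate was 0.08, and with WT replicate 1 left out it was 0.31. A lncRNA on the opposite strand, Gm62623, overlaps Spry2 with 71 to 97 counts beside 782 to 1016 for Spry2. Since no source states whether the counting used strand, reads of this pair cannot be told apart with certainty.

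Spry4, on chromosome 18 from 38719300 to 38736025, had the narrowest range of the 9 genes. It was at 75.1 and 74.0 CPM in WT and at 74.6 and 79.3 CPM in Sirt7-/-, so that the groups overlapped. Its log2 fold change of 0.05 ± 0.07 had a 95% interval of -0.11 to 0.20, equal to 0.928 to 1.15-fold.

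The SPRED proteins sit at the plasma membrane, where they recruit neurofibromin, an inactivator of RAS. The pair had fold changes of opposite sign. Spred1, on chromosome 2 from 116951524 to 117018277, was at 86.3 and 88.5 CPM in WT and at 82.8 and 75.1 CPM in Sirt7-/-. Both Sirt7-/- libraries were below WT, at -0.15 ± 0.07 on the log2 scale (-0.31 to 0.01), and the estimate was -0.07 without Sirt7-/- replicate 2. Spred2, on chromosome 11 from 19874355 to 19974442, was at 44.7 and 49.9 CPM in WT and at 56.3 and 51.7 CPM in Sirt7-/-. Here both Sirt7-/- libraries were above WT, although Sirt7-/- replicate 2 exceeded WT replicate 2 by less than the WT libraries differed. The log2 fold change was 0.19 ± 0.09 (0.00 to 0.38), with an unadjusted p of 0.0472 and an adjusted p of 0.575 in edgeR.

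The dual-specificity phosphatases remove the activating phosphates from ERK. DUSP5 acts on ERK in the nucleus, DUSP6 on ERK in the cytoplasm, and DUSP4 is a nuclear enzyme that also accepts other MAP kinases. Dusp5, on chromosome 19 from 53517532 to 53530862, had the smallest p of the 9 genes and the 219th smallest of 19736. It was at 106 and 101 CPM in WT and at 120.0 and 124 CPM in Sirt7-/-, resting on 2237 to 2726 counts per library. Both Sirt7-/- libraries were above WT, and in log2 CPM the group means differed by more than the replicates of either group did. That also held for Spry1, Spred1 and Spred2, and for 26.8% of all 19736 genes. The log2 fold change was 0.24 ± 0.07 (0.09 to 0.38), or 1.18-fold, with an unadjusted p of 0.00396 and an adjusted p of 0.353 in edgeR. Under the 11 other models, scalings, filters and sets of libraries that were tried, the log2 fold change ran from 0.20 to 0.28. In the alternatives with all 4 libraries, the adjusted p was lowest at 0.178 (edgeR with a replicate block). It was highest at 0.716 in edgeR without a filter on low counts, a fit in which Sirt7 was not called either (adjusted p of 0.433).

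Dusp6, on chromosome 10 from 99086564 to 99103361, was at 106 and 99.5 CPM in WT and at 96.2 and 98.3 CPM in Sirt7-/-. Both Sirt7-/- libraries were below WT, although the WT libraries differed from each other by more than the groups did, and the log2 fold change of -0.08 ± 0.07 (-0.22 to 0.07) did not pass. Dusp4, on chromosome 8 from 35274442 to 35287048, was at 70.8 and 71.5 CPM in WT and at 73.3 and 78.4 CPM in Sirt7-/-. Its Sirt7-/- libraries were above WT, at 0.09 ± 0.07 (-0.06 to 0.25), and did not pass either.

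The sequences before the start sites of Dusp5 and Dusp6 are shown because these 2 ERK phosphatase genes, at almost the same CPM in WT, had fold changes of opposite sign and Dusp5 the smallest p. Each is the 250 bases before the start of the GENCODE canonical transcript in GRCm39, written 5′ to 3′ on the strand of the gene, at chr19:53517282-53517531 (plus strand) and chr10:99098818-99099067 (plus strand). Capitals mark CArG boxes, the element bound by serum response factor, a partner of ERK-activated ETS factors.
Dusp5: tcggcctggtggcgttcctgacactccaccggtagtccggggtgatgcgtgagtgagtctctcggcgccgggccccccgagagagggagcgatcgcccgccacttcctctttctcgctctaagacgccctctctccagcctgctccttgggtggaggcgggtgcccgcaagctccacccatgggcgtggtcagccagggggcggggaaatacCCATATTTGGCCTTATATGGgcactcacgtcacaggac
Dusp6: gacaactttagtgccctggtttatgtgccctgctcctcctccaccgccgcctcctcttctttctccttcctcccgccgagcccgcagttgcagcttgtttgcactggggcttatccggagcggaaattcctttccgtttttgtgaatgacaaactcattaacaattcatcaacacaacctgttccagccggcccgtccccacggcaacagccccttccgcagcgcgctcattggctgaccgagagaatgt
Dusp5 held 2 CArG boxes end to end, starting 38 and 28 bases before the start site. Dusp6 held none, nor did the windows of the 7 other genes. A CArG box was present in 1.40% of 21757 protein-coding windows of this length, and 2 or more in 0.023%. Both strands were searched, and a box reads as one on either strand. The ETS motif CCGGAA was found in the Spry4 window alone, against 12.4% of all windows, and the AP-1 motif TGANTCA and the CRE motif TGACGTCA in none of the 9, against 6.18% and 1.70%. The CArG search was added after the Dusp5 sequence and values had been seen. These matches describe the letters in the windows and are not evidence of binding.

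Etv4 encodes a PEA3-type ETS factor that is induced by FGF signalling. On chromosome 11 from 101660568 to 101676197, it was at 47.0 and 44.2 CPM in WT and at 45.0 and 40.1 CPM in Sirt7-/-. The groups overlapped, and the log2 fold change was -0.10 ± 0.09 (-0.29 to 0.09). The estimate was -0.01 without Sirt7-/- replicate 2 and -0.18 without Sirt7-/- replicate 1.

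**Figure D2:**
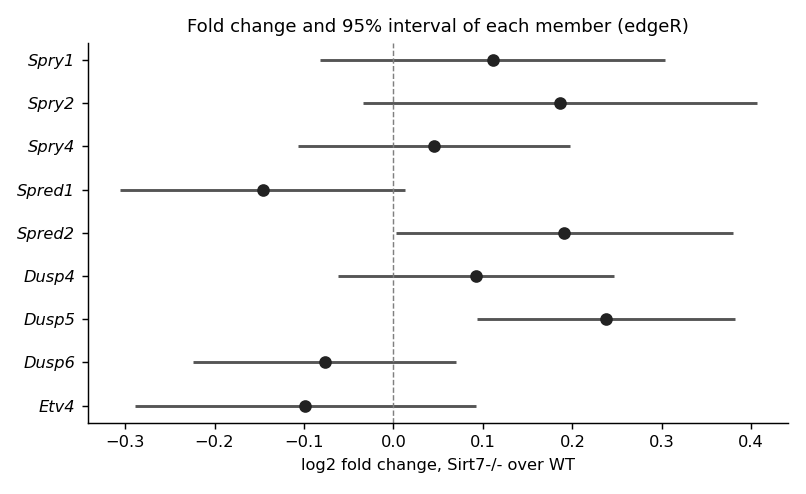
Log2 fold change of each feedback gene, Sirt7-/- over WT (point), with its 95% interval from edgeR's moderated standard error (line), not adjusted for the number of genes. The intervals of Dusp5 and Spred2 lie above 0, from 0.09 to 0.38 and from 0.00 to 0.38, and the 7 others include 0.

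Across the 9 genes, the unadjusted 95% intervals from edgeR ran from -0.31 (Spred1) to 0.41 (Spry2), or from 0.809 to 1.33-fold. Changes beyond that range were outside the edgeR interval of every one of these genes. DESeq2 gave each of the 9 a larger SE (for Spry2, 0.13 against 0.10 in edgeR), so that the range holds for the edgeR fit only.

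Levels were compared between genes per kb of annotated exon. In this measure the phosphatase genes came first, with means over the 4 libraries of 45.4 CPM per kb for Dusp5, 29.5 for Dusp6 and 25.5 for Dusp4. Etv4 followed at 13.9 CPM per kb, Spry4 at 11.5, Spred1 at 10.7, Spred2 at 8.31, Spry2 at 7.95 and Spry1 at 6.21. Of neighbours in this order, Spry4 and Spred1 overlapped over the 4 libraries, as did Spred2 and Spry2, whereas the other neighbours did not. All 9 were in the upper part of the 19736 tested genes by CPM per kb, from the 68.7th percentile for Spry1 to the 95.9th for Dusp5. Exon length was the union over all annotated transcripts, so a gene with long unused exons has a level per kb that is too low.

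**Figure D3:**
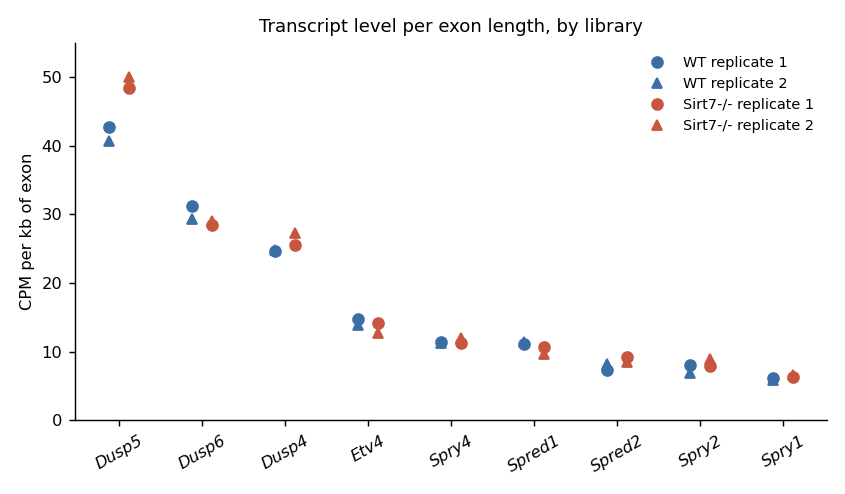
Level of each feedback gene in CPM per kb of exon (vertical axis) in the 4 libraries, with genes in order of their mean. The order is led by Dusp5, at 40.7 to 50.01 CPM per kb, and ends with Spry1, at 5.85 to 6.61 CPM per kb.

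Within a genotype, the difference between the replicates did not have the same sign in all 9 genes. With 2 libraries per genotype, whether the genes vary together cannot be judged. Between the Sirt7-/- libraries, 6 genes (all 3 Sprouty and all 3 phosphatase genes) were higher in replicate 2, and Spred1, Spred2 and Etv4 were lower. Replicate 2 was also the Sirt7-/- library with the higher Sertoli and myoid marker sums and the lower germ cell sum given above. The part of these markers, and of the fibroblast and erythroid markers given above, in the levels of the 9 genes was not tested. In bulk RNA, fewer cells of a type and less RNA per cell cannot be told apart. Between the WT libraries, the Sprouty genes, Dusp5, Dusp6 and Etv4 were lower in replicate 2, and Spred1, Spred2 and Dusp4 higher.

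Ratios within a library do not depend on its scaling, and 2 of them were picked after their values had been seen. The Dusp5 to Dusp6 ratio of CPM was 1.00 and 1.01 in WT, compared with 1.25 and 1.26 in Sirt7-/-. The Spred1 to Spred2 ratio was 1.93 and 1.77 in WT and 1.47 and 1.45 in Sirt7-/-. In both pairs the genotypes were separated by more than the replicates differed. Of all 36 pairs among the 9 genes, 22 had ratios that did not overlap between the genotypes (61.1%), against 38.5% of all pairs of tested genes. Each gene enters 8 of these pairs, so that the 22 are not separate observations, and Dusp5, Dusp6 and Spred1 each had 6 of theirs.

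**Figure D4:**
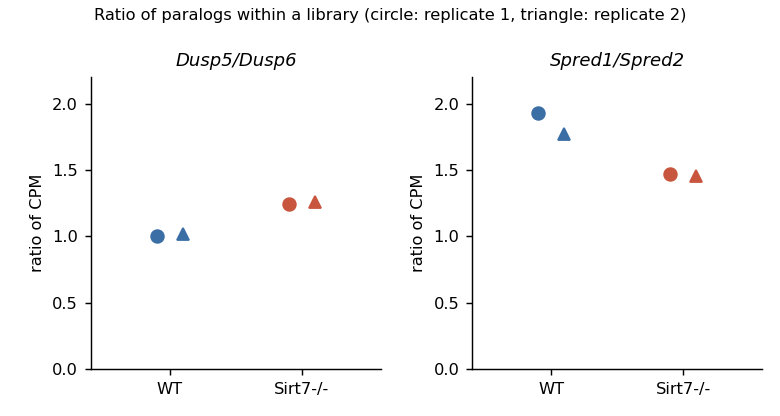
Ratio of Dusp5 to Dusp6 and of Spred1 to Spred2 in CPM, not corrected for length, in each library. The Dusp5 to Dusp6 ratio is near 1.0 in both WT libraries and near 1.25 in both Sirt7-/- libraries, and the Spred1 to Spred2 ratio is lower in both Sirt7-/- libraries.

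The mean profile of the 9 genes, in log2(CPM + 0.5) centred on each gene, was almost flat, at -0.01 and -0.05 in WT and at 0.02 and 0.03 in Sirt7-/-. The tested genes nearest to it by Euclidean distance over the 4 libraries were Polr3k, Tbc1d17 and Slx4, at distances of 0.00875 to 0.00940. The mean combines genes with fold changes of both signs, so that a gene near it need not resemble any of the 9. Shared regulation was not tested.

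The rest of the pathway was followed in 6 lists of 90 genes, of which 81 were tested. None was called with edgeR or DESeq2, and 10 of the 81 (12.3%) had an unadjusted p under 0.05 with edgeR, beside the 8.62% of all genes, 6 of them positive. Of 18 FGF ligand genes 10 were tested, all weakly expressed, and 0 passed. Fgf18 was at 5.90 and 5.10 CPM in WT and 4.73 and 5.69 CPM in Sirt7-/-, and Fgf2 at 2.91 and 3.75 CPM against 2.77 and 4.55 CPM. Fgf8 was at 0.727 and 0.767 CPM against 1.09 and 1.502 CPM (log2 fold change 0.79 ± 0.32). The groups of Fgf8 did not overlap, and it was the ligand gene with an unadjusted p under 0.05.

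Among 15 receptor tyrosine kinase genes 0 passed and 2 had an unadjusted p under 0.05 with edgeR, beside 8.62% of all genes. Ret, the GDNF receptor, was at 257 and 235 CPM in WT and at 243 and 204 CPM in Sirt7-/- (-0.14 ± 0.08), and Igf1r was at -0.02 ± 0.06. Erbb3, a receptor of the EGF family, was at 79.0 and 80.2 CPM in WT and at 96.0 and 99.4 CPM in Sirt7-/-, a log2 fold change of 0.30 ± 0.07 with an adjusted p of 0.245 in edgeR. Named after its values were seen, Erbb4 was at -0.31 ± 0.12. The 24 adaptor and RAS-ERK cascade genes had a median of 0.00, and 0 were under an unadjusted p of 0.05. The phosphatase gene Ptpn11 was at -0.08 ± 0.06 and Map2k1, which encodes MEK1, at 0.13 ± 0.06.

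Other inhibitors of the pathway were also without a call. Of 7 other MAP kinase phosphatase genes, Dusp1 was at 0.00 ± 0.07, Dusp16 at -0.10 ± 0.08 and Dusp8, with both Sirt7-/- libraries below WT, at -0.30 ± 0.09 (adjusted p of 0.408 in edgeR). Of 12 further inhibitors 11 were tested, and Spry3 was not analysed here. The RAF inhibitor gene Pebp1 was at 0.09 ± 0.06 and the EGF receptor inhibitor gene Errfi1 at 0.19 ± 0.07. Spred3, the paralog of Spred1 and Spred2, was at 16.3 and 14.6 CPM in WT and at 9.96 and 13.0 CPM in Sirt7-/- (-0.43 ± 0.14; adjusted p of 0.464 in edgeR).

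The 14 other ERK-responsive transcripts had a median of 0.02, with 0 called. With edgeR 4 had an unadjusted p under 0.05, a value that 8.62% of all genes were under. Egr1, the most abundant, was at 742 and 687 CPM in WT and at 686 and 748 CPM in Sirt7-/- (0.01 ± 0.07), and Epha2 was at -0.09 ± 0.10. Egr3 was at 41.3 and 40.9 CPM in WT and at 50.1 and 48.2 CPM in Sirt7-/- (0.26 ± 0.08; adjusted p of 0.408 in edgeR). Named after their values were seen, the 3 other genes were Fos at 0.21 ± 0.08, Fosl1 at 0.26 ± 0.12 and Etv5 at -0.21 ± 0.09. Etv5, the paralog of Etv4 and a self-renewal factor of spermatogonial stem cells, was at 173 and 157 CPM in WT and at 155 and 129 CPM in Sirt7-/-. As with Etv4, its lowest library was Sirt7-/- replicate 2.

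**Figure D5:**
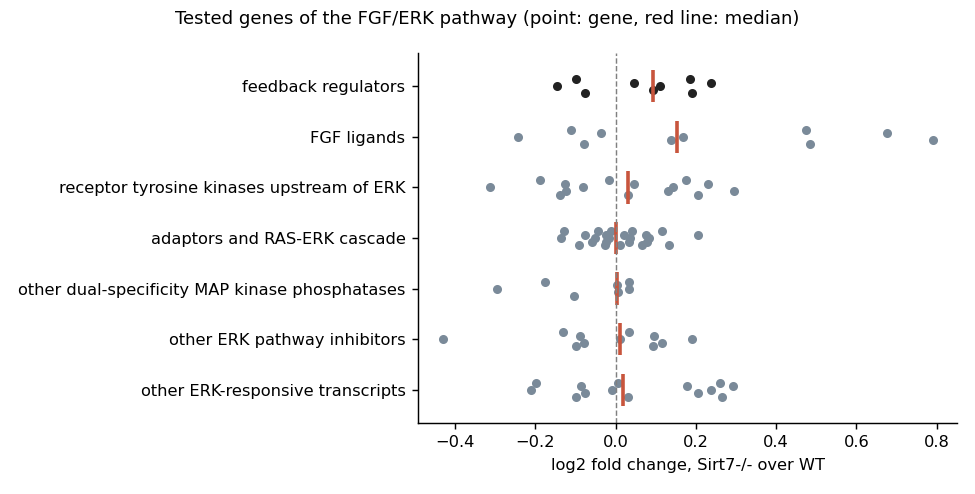
Log2 fold change, Sirt7-/- over WT (horizontal axis), of the 9 feedback genes and of the tested genes in 6 pathway lists, with each list's median in red. The feedback genes lie between -0.15 and 0.24 and overlap every other list, and the widest spread is among the weakly expressed FGF ligands, up to 0.79 for Fgf8.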

How the data were processed

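RNA was sequenced from 4 libraries, 2 WT and 2 Sirt7-/-, made with a strand-specific mRNA kit and read as pairs of 150 bp. The authors used HISAT2 for alignment to GRCm39 and featureCounts for counting, and the deposited values are whole-number read counts per gene, not normalized. Their versions, annotation, strand setting and handling of multiply aligned reads are unstated in the labels and methods. Of 78275 Ensembl identifiers 78263 matched GENCODE M39 without their version, and where several shared a symbol it went to the identifier with most counts. All 4 sample columns entered the analysis.

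Sirt7-/- was compared with WT in R 4.3.3 with edgeR 4.0.16, using filterByExpr (minimum count 10; 19736 genes kept), TMM scaling and the quasi-likelihood F test with genotype as the only term. Benjamini-Hochberg adjustment ran over all 19736 genes, and an adjusted p under 0.1 was a call. SE is the size of the log2 fold change over the root of F, and 95% intervals use it with the moderated degrees of freedom. Levels per kb divide CPM by union exon length. DESeq2 1.42.0 and limma-voom 3.58.1 (limma), other scalings, filters and thresholds, a replicate block, and fits that leave out each library in turn were the alternatives.

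The genes and lists were chosen with earlier results of these data known. All 9 feedback genes are named. From each list the rule took called genes, or else the 2 most abundant and the 1 other with the smallest p. Of these, 1 gene that the rule took is not reported here. The labels only number the replicates, which the study's methods describe as independent biological ones, without naming the animals. No 2 libraries agreed within sampling noise (chi-square per gene of 3.48 between the WT and 7.59 between the Sirt7-/- replicates).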

Additional observations from a re-analysis of the deposited data

How the results depend on the processing

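The number of feedback genes called stayed at 0 in the main fit and in all alternatives run, whereas the number of genes called over the whole table, 17, did not hold. DESeq2 called 48, edgeR without a filter on low counts 0 (2032 genes at an unadjusted p under 0.05), and a threshold of 0.05 left 9. With a replicate block 236 genes were called, none of them a feedback gene. Same-numbered libraries deviated together only weakly (correlation 0.118 across 13863 genes, which are not replicates), and the labels give the shared number no meaning. Leaving out 1 library gave 0 to 465 calls, with 0 when either WT replicate was dropped (unadjusted p under 0.05 in 596 and 824 genes), 8 without Sirt7-/- replicate 1 and 465 without Sirt7-/- replicate 2. In these fits the lone library of a group is assumed to vary like the other group. The cause of these changes was not tested. In the fits that called 0 genes over the whole table, Sirt7 was not called either, so that 0 feedback genes there is no test of them. The 9 fold changes kept their signs under the 11 alternatives that refit them, and their median ran from 0.05 without Sirt7-/- replicate 2 to 0.13 without Sirt7-/- replicate 1. The count of 6 separated genes was also 6 under both other scalings.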
